A study of Drosophila melanogaster with 6 samples.

Results

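The genes described here make, bind or remodel chitin, and their RNA was measured in wing imaginal discs of Drosophila melanogaster. They are 10 genes: the chitin-binding obstructor genes obst-A, obst-B, obst-E and Gasp, the chitin deacetylase genes verm and serp, the chitinase genes Cht5 and Cht7, and, on the synthase side, kkv and knk. Every probe set annotated to exactly 1 of these symbols was taken, which gave 13 of the 13966 probe sets tested and 10 of the 10844 genes with a probe set of their own. obst-A, obst-E and serp have 2 probe sets each. The list was drawn up with the difference between the 2 groups of arrays already known, so the members' values in that comparison are a description and carry no test.

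RNA of wing discs, the larval precursors of wing and notum, taken at the last larval instar was hybridised to 6 Affymetrix arrays to find genes that respond to Egfr, the epidermal growth factor receptor of the fly. In 3 samples, EGFR ACT, the 71B-Gal4 driver expressed an activated receptor that the labels name TOP. In the other 3, EGFR DN, the same driver expressed a dominant negative receptor. The arrays are called ACT1 to ACT3 and DN1 to DN3 by their replicate numbers. Both groups carry the driver and a receptor transgene and were reared at 25 °C, so neither group is free of transgene. No source used here gives the disc cells that the driver reaches, how many animals were pooled, or their sex and age in hours. Nothing says that the replicates came from separate cultures. The p-values then cover only the spread of these 6 samples, part or all of which may be technical.

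Chitin is a polymer of N-acetylglucosamine that is extruded at the apical surface of epithelia and forms the scaffold of insect cuticle and of the inner lining of the trachea. A synthase builds the chain from an activated sugar, proteins with chitin-binding domains arrange the fibres, deacetylases modify them, and chitinases cut them during remodelling and moulting. The disc epithelium is the tissue that later secretes the cuticle of the wing and the notum.

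The values are log2 probe set signals, and array medians lay between 8.01 and 8.06. Pearson's r between arrays was taken over probe sets, which are not independent replicates. It ran from 0.962 for ACT2 with DN3 to 0.9911 for ACT1 with DN1. ACT3 with DN3 came next at 0.9906, so the closest pairs joined arrays of different groups that share a replicate number. Of 8 wing disc epithelium markers 6 were measured (nub, vg, ap, ptc, salm and Dll), of which 4 read higher in EGFR ACT discs and 2 lower, with a median log2 difference of 0.26 and a range from -0.37 (vg) to 0.55 (nub). The log2 of their summed signal was 12.30 to 12.42 in EGFR ACT discs and 11.99 to 12.40 in EGFR DN discs, and the 4 yeast control probe sets averaged 5.54 to 5.96 per array. Egfr itself read 10.49 ± 0.29 in EGFR ACT discs and 8.97 ± 0.43 in EGFR DN discs (SD, n = 3 each). The difference was 1.52 on the log2 scale (SE 0.23; limma adjusted p over all genes = 0.433). Whether its probe set also detects transgene RNA is not known. Of 7 names of Egfr and its targets 5 were measured, and all 5 read higher in EGFR ACT discs, 4 of them without overlap, with a median of 0.87 and 0 called. Among them sty, a feedback inhibitor of the receptor pathway, had a log2 difference of 0.90 (SE 0.16; limma adjusted p = 0.718), and aos, which encodes a secreted inhibitor of Egfr, 0.51 (SE 0.18; limma adjusted p = 1). The direction of these genes is that of the labels, but aos was dim. Its group means of 5.70 in EGFR ACT discs and 5.19 in EGFR DN discs lay within or below the range of the yeast controls. No gene passed limma's test over all genes at an adjusted p under 0.05: 0 of 10844 were called (0%). At an unadjusted p under 0.05 there were 258 genes (2.38%).

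Of the 10 chitin genes, 8 read lower in EGFR ACT discs and 2 read higher, with a median log2 difference (EGFR ACT minus EGFR DN, here and throughout) of -0.39. Over all 10844 genes 46.8% read lower, and the median was 0.01. The largest differences were those of obst-B at -0.96, Gasp at -0.92, verm at -0.66 and Cht5 at -0.49. The genes kkv and knk lay close to 0, and Cht7 and obst-E read higher in EGFR ACT discs. In 3 genes, obst-B, Gasp and Cht5, all EGFR ACT arrays lay below all EGFR DN arrays. Over all genes that pattern was found for 3.12%, and groups without overlap in either direction for 6.35%. Because the list was chosen on this comparison, nothing is read from its count against those shares. In bulk RNA, fewer cells of a type and less RNA per cell cannot be told apart.

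**Figure D1:**
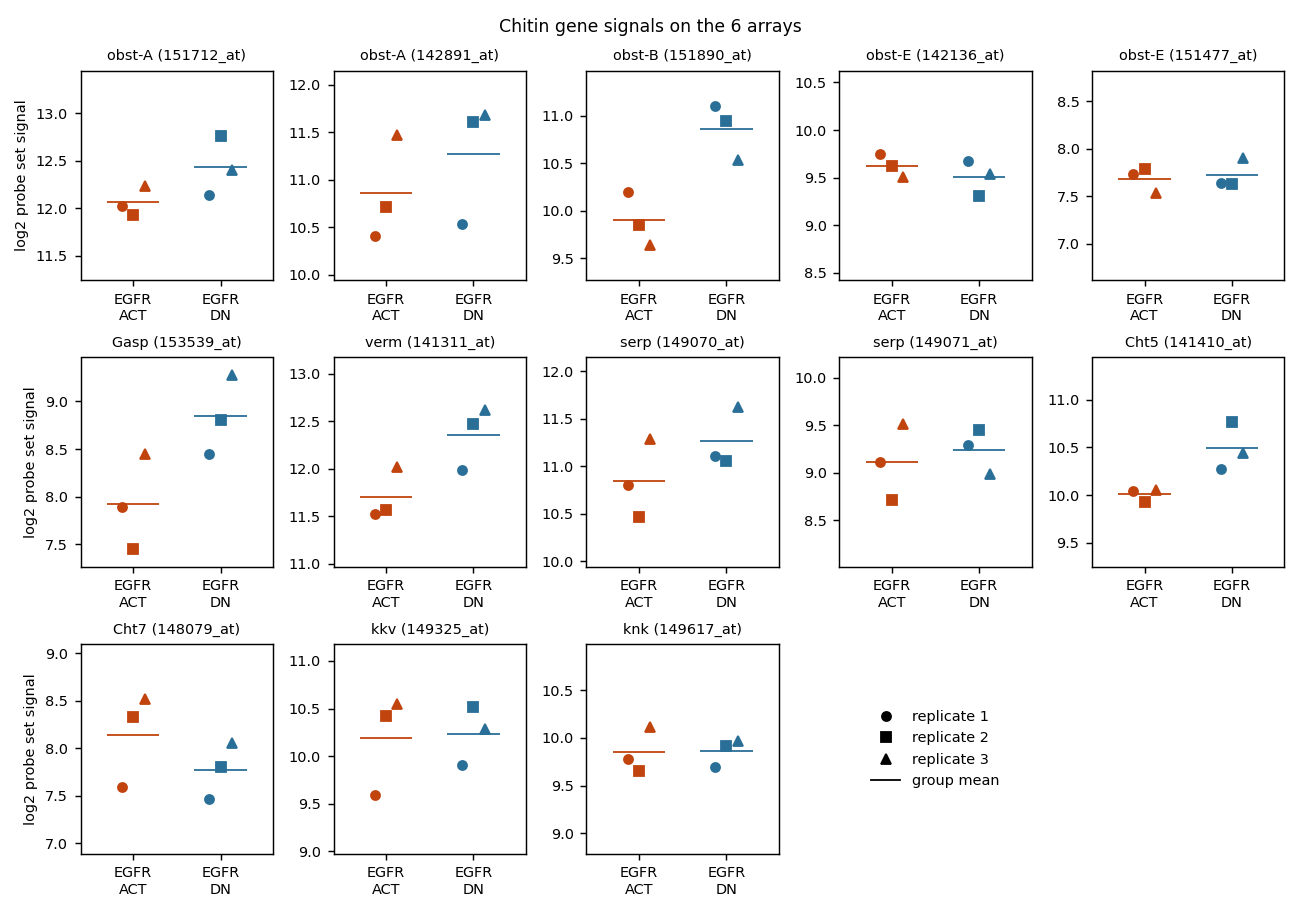
Log2 probe set signal (y axis, every panel spanning the same number of log2 units) of the 13 probe sets of the 10 chitin genes in EGFR ACT and EGFR DN discs, with 1 point per array, its shape giving the replicate number, and a line at each group mean. The groups are apart in obst-B, Gasp and Cht5, and share their range in both probe sets of obst-E, in kkv and in knk.

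The obstructor proteins carry chitin-binding domains of the peritrophin-A type and are secreted into the cuticle. obst-B read 10.20, 9.85 and 9.64 in ACT1, ACT2 and ACT3, against 11.10, 10.95 and 10.53 in DN1, DN2 and DN3. The groups were separated by 0.33 between ACT1, the highest EGFR ACT array, and DN3, the lowest EGFR DN array. The log2 difference was -0.96 (SE 0.20, n = 3 each), or 1.95-fold lower in EGFR ACT discs, and the 6 arrays spanned 1.46. Leaving out 1 array kept it between -1.12 and -0.83.

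Gasp, a chitin-binding protein best known from the tracheal lumen of the embryo, read 7.89, 7.45 and 8.44 in ACT1, ACT2 and ACT3, against 8.45, 8.81 and 9.28 in DN1, DN2 and DN3. ACT3 and DN1 nearly met, with a gap of 0.01, while ACT2 was the lowest and DN3 the highest array. The log2 difference was -0.92 (SE 0.28), or 1.89-fold lower, and it lay between -1.18 and -0.68 with 1 array left out. Gasp thus differed by nearly as much as obst-B, but its replicates were spread wider, with an SD of 0.50 in EGFR ACT discs and 0.41 in EGFR DN discs, against 0.28 and 0.29 for obst-B.

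obst-A, which in the larva helps to organise the chitin of the new cuticle, had probe sets with similar group differences but unlike values within the groups. The brighter one (probe set 151712_at) read 12.02, 11.93 and 12.23 in ACT1, ACT2 and ACT3, against 12.14, 12.76 and 12.40 in DN1, DN2 and DN3. Only DN1 fell among the EGFR ACT arrays there, and the log2 difference was -0.37 (SE 0.18). The other (probe set 142891_at) read 10.41, 10.71 and 11.47 in ACT1, ACT2 and ACT3, against 10.53, 11.61 and 11.69 in DN1, DN2 and DN3. ACT1, ACT2 and DN1 were low together and ACT3, DN2 and DN3 high together, so that the group SDs were 0.55 in EGFR ACT discs and 0.64 in EGFR DN discs, and the log2 difference of -0.41 had an SE of 0.35. It was -0.78 without DN1 and -0.18 without ACT1.

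obst-E, an obstructor known for its part in shaping the body of the pupa through the cuticle, was the obstructor that did not read lower. Its brighter probe set (probe set 142136_at) read 9.74, 9.62 and 9.51 in ACT1, ACT2 and ACT3, against 9.67, 9.31 and 9.54 in DN1, DN2 and DN3, a log2 difference of 0.12 (SE 0.15). The other (probe set 151477_at) had a log2 difference of -0.04 (SE 0.14), with all arrays between 7.53 and 7.90. Both probe sets thus varied little over the 6 arrays, with spans of 0.44 and 0.37.

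The deacetylases verm (Vermiform) and serp (Serpentine) remove acetyl groups from chitin and are known for limiting the length of tracheal tubes. In the order of protein-coding genes of the RefSeq table (assembly Release 6 plus ISO1 MT) they are direct neighbours, with no protein-coding gene between them. verm read 11.52, 11.57 and 12.02 in ACT1, ACT2 and ACT3, against 11.99, 12.47 and 12.62 in DN1, DN2 and DN3. Only ACT3 and DN1 overlapped, by 0.03, and the log2 difference was -0.66 (SE 0.21), or 1.57-fold lower in EGFR ACT discs. It stayed between -0.84 and -0.52 with 1 array left out.

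serp read 10.80, 10.47 and 11.28 in ACT1, ACT2 and ACT3 at its brighter probe set (probe set 149070_at), against 11.11, 11.06 and 11.62 in DN1, DN2 and DN3. ACT3 lay above DN1 and DN2, and the log2 difference was -0.41 (SE 0.23). At the other probe set (probe set 149071_at) ACT3 was the highest array of all, at 9.51, and ACT2 the lowest, at 8.71, with the EGFR DN arrays between 8.99 and 9.45. The log2 difference there was -0.13 (SE 0.22), and it was 0.07 without ACT2. The further neighbour of verm on its other side, Gbeta76C, had a log2 difference of 0.065.

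The chitinase genes differed from each other in sign. Cht5, a secreted chitinase of the kind that breaks down old cuticle at the moult, read 10.04, 9.92 and 10.06 in ACT1, ACT2 and ACT3, against 10.28, 10.77 and 10.45 in DN1, DN2 and DN3. The EGFR ACT arrays were close together, with an SD of 0.07, and all below the EGFR DN arrays, whose SD was 0.25. The log2 difference was -0.49 (SE 0.16), or 1.41-fold lower.

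Cht7, a chitinase whose counterpart in the beetle Tribolium acts in cuticle assembly, read 7.59, 8.32 and 8.52 in ACT1, ACT2 and ACT3, against 7.47, 7.80 and 8.05 in DN1, DN2 and DN3. Both replicate 1 arrays were low, and ACT1 lay below DN2 and DN3. The log2 difference of 0.37 (SE 0.25) was the highest among the 10 genes. It was 0.65 without ACT1, 0.18 without ACT3 and 0.04 with array weights.

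On the synthase side, kkv (krotzkopf verkehrt) encodes the chitin synthase of cuticle and trachea, and knk (Knickkopf) a protein that organises and protects newly made chitin. kkv read 9.60, 10.42 and 10.55 in ACT1, ACT2 and ACT3, against 9.91, 10.51 and 10.29 in DN1, DN2 and DN3. As in Cht7, ACT1 and DN1 were the lowest arrays, and the groups overlapped throughout. The log2 difference was -0.05 (SE 0.26). It was 0.25 without ACT1 and -0.42 with array weights, so its sign is not fixed by these arrays.

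knk read 9.78, 9.65 and 10.12 in ACT1, ACT2 and ACT3, against 9.69, 9.91 and 9.97 in DN1, DN2 and DN3. The 6 arrays spanned 0.47, and the log2 difference was -0.01 (SE 0.16), turning to 0.09 without ACT2 and to 0.003 with quantile normalization.

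**Figure D2:**
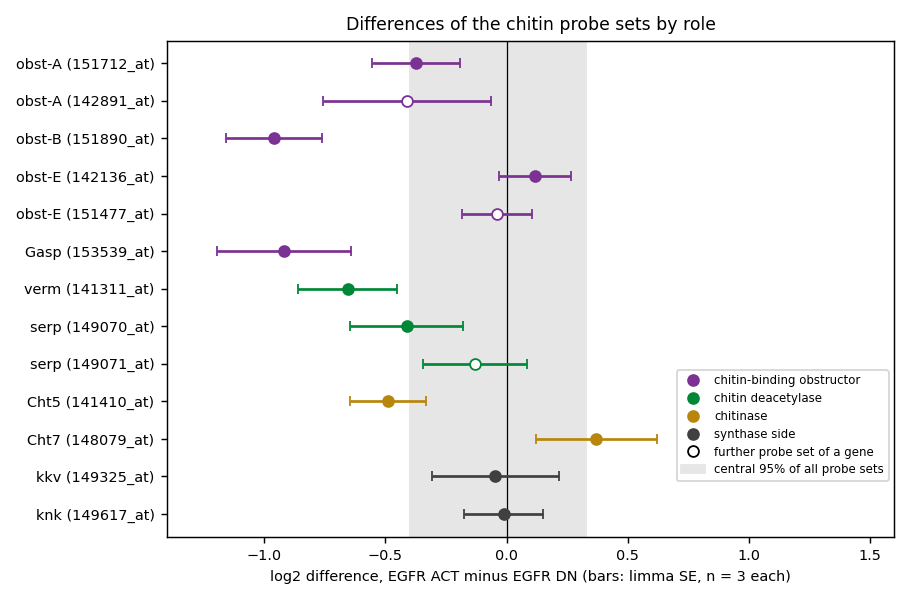
Log2 difference, EGFR ACT minus EGFR DN, of the 13 probe sets (x axis) by role, with bars of 1 limma SE (n = 3 each), open points for the further probe set of a gene, and a grey band for the central 95% of all 13966 probe sets. obst-B, Gasp, verm and Cht5 lie below the band at -0.96, -0.92, -0.66 and -0.49, the brighter probe set of serp and the dimmer one of obst-A lie just below its edge of -0.40 at -0.41 each, and kkv and knk lie inside it.

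Grouped by role, the median log2 difference was -0.65 over the 4 obstructors, -0.53 over the 2 deacetylases, -0.06 over the 2 chitinases and -0.03 over kkv and knk. Over the 8 binding and remodelling genes together it was -0.45, with 6 lower and 2 higher. As deviations from each gene's mean over the 6 arrays, the binding and remodelling genes averaged -0.26, -0.34 and -0.02 in ACT1, ACT2 and ACT3, against 0.04, 0.26 and 0.33 in DN1, DN2 and DN3. The average of kkv and knk was -0.35, 0.00 and 0.30 in ACT1, ACT2 and ACT3, against -0.23, 0.18 and 0.10 in DN1, DN2 and DN3. The chitinases averaged -0.29, 0.02 and 0.18 in ACT1, ACT2 and ACT3, against -0.23, 0.18 and 0.14 in DN1, DN2 and DN3. These averages were close to those of kkv and knk, but they join 2 unlike genes. Pearson's r over 6 arrays was -0.35 between Cht5 and Cht7. Cht7 had an r of 0.76 with kkv and 0.49 with knk. Cht5 had 0.26 with kkv and 0.29 with knk. With obst-A, obst-B, Gasp and obst-E, Cht5 had 0.95, 0.75, 0.78 and -0.75. These r values include the group difference that was known when the genes were chosen, so they are a description only. The obstructors averaged -0.18, -0.43 and -0.19 in ACT1, ACT2 and ACT3, against 0.20, 0.31 and 0.29 in DN1, DN2 and DN3. The deacetylases averaged -0.38, -0.53 and 0.11 in ACT1, ACT2 and ACT3, against 0.005, 0.22 and 0.58 in DN1, DN2 and DN3. ACT3 was thus below the mean for the obstructors and above it for the deacetylases. Of kkv and knk, kkv was lowest in ACT1 at -0.62, while knk was lowest in ACT2 at -0.20.

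**Figure D3:**
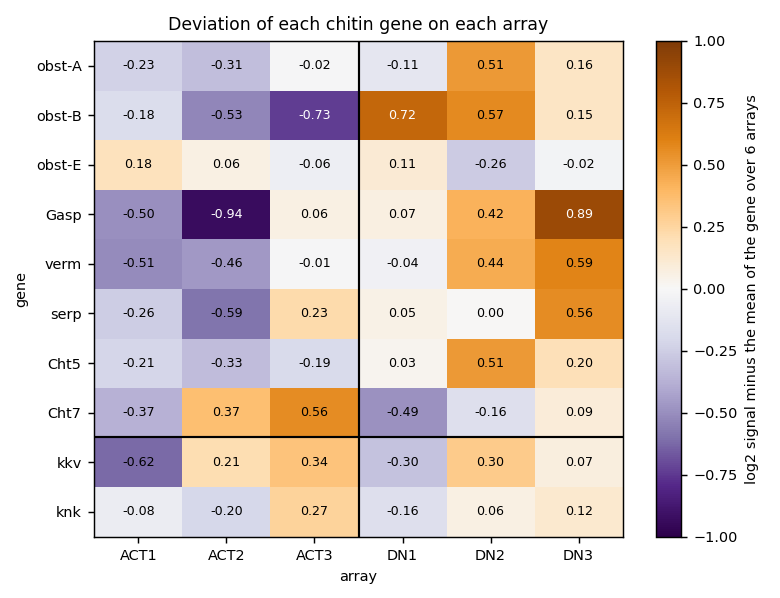
Deviation of each chitin gene's log2 signal from its own mean over the 6 arrays (colour and printed value), with genes in rows by role, arrays in columns, and lines between the groups and above kkv and knk. ACT2 holds the lowest value of 5 of the 10 genes, and DN3 lies above the mean in 9 of them.

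Within groups the genes differed in which array was extreme. ACT2 was the lowest array for obst-A, Gasp, serp, Cht5 and knk, whereas ACT3 was the lowest for obst-B and the highest for Cht7, kkv and knk. Within the EGFR DN group, obst-B was highest in DN1, where Gasp and verm were lowest. The genes with the largest group differences therefore did not all share 1 profile over the replicates. Gasp and verm had an r of 0.95 with each other over 6 arrays, and obst-B had 0.51 with Gasp and 0.49 with verm. Among 1411 genes with a mean of at least 7 and an SD over the arrays of at least 0.3, the gene whose profile was most like that of obst-B was Had1 (Pearson's r = 0.99 over 6 arrays), followed by CG31075 (0.94) and CG10916 (0.93), then CG7860 (0.92) and CG12947 (0.91). Most like Gasp were Jheh2, a juvenile hormone epoxide hydrolase gene (0.99), Enoph, VhaAC45, Tmhs and REPTOR-BP (0.97 each). No gene is on both lists. These correlations are a description, since they join the group difference with array effects that all genes share.

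Marker genes of other larval tissues varied over the same arrays. The 7 measured of 9 salivary gland markers read lower in EGFR ACT discs in 7 of 7, with a median log2 difference of -0.74. These markers differed by -1.21 to -0.02, with Sgs1 at -0.03 and fkh at -0.02, and their groups overlapped in all 7. The log2 of their summed signal ranged from 11.66 to 13.37 in EGFR ACT discs and from 12.004 to 13.75 in EGFR DN discs. They averaged -0.71, -0.41 and 0.18 in ACT1, ACT2 and ACT3, against -0.46, 0.68 and 0.71 in DN1, DN2 and DN3, as deviations from the mean over the arrays. The 3 measured of 6 fat body markers were lower in 3 of 3, with a median of -0.71 and a log2 summed signal of 11.003 to 12.64 in EGFR ACT discs and 12.03 to 13.05 in EGFR DN discs. In both lists, as in the binding and remodelling genes, ACT1 and ACT2 lay below the mean and DN3 was the highest array, while DN1 was low for the salivary gland list alone. The part of these tissues in the chitin gene values was not tested.

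Tracheal tissue, which attaches to the disc, expresses Gasp, verm and serp. The 7 measured of 10 tracheal markers that are no chitin genes had a median log2 difference of 0.03, with 4 higher and 3 lower. Their differences ran from -0.22 to 0.42. In 2 of the 7 (28.6%) the groups did not overlap, in opposite directions, against 6.35% of all genes. The log2 of their summed signal was 12.66 to 12.83 in EGFR ACT discs and 12.48 to 13.01 in EGFR DN discs. The FGF receptor gene btl, expressed in tracheal cells, read 7.71, 7.75 and 7.91 in ACT1, ACT2 and ACT3, against 7.87, 7.81 and 7.85 in DN1, DN2 and DN3. Its log2 difference was -0.05 (SE 0.13). Markers such as uif, pio and kni are also expressed in other epithelia, and trh was not analysed here. The 5 measured of 7 adepithelial myoblast markers were all lower, with a median of -0.25 and a log2 summed signal of 10.77 to 10.94 in EGFR ACT discs and 11.07 to 11.20 in EGFR DN discs. The 7 measured of 8 hemocyte markers had a median of -0.01 and a log2 summed signal of 10.65 to 10.88 in EGFR ACT discs and 10.32 to 10.66 in EGFR DN discs.

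**Figure D4:**
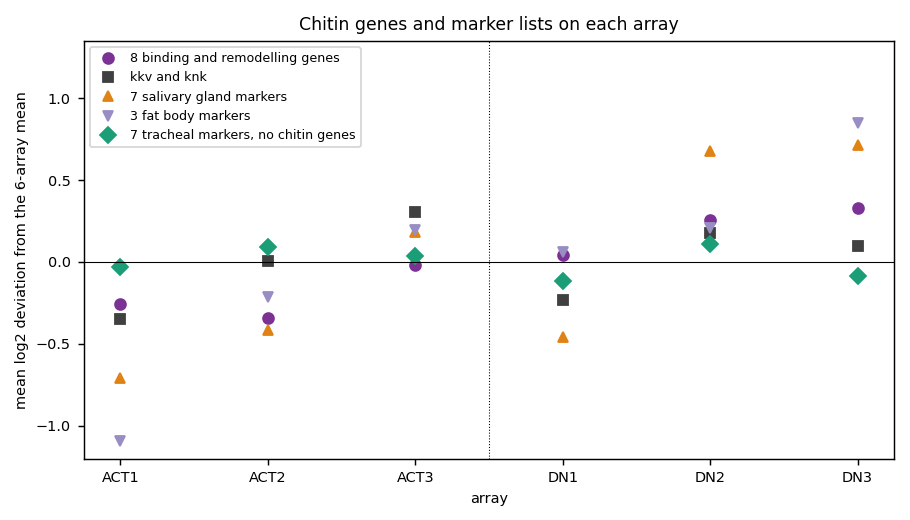
Mean log2 deviation from the 6-array mean (y axis) on each array (x axis) for the 8 binding and remodelling genes, for kkv and knk, and for 3 lists of markers of other tissues. The binding and remodelling genes run from -0.34 in ACT2 to 0.33 in DN3, the salivary gland markers from -0.71 in ACT1 to 0.71 in DN3, and the tracheal markers stay between -0.12 and 0.11.

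The rest of the pathway was examined as 46 measured genes of 55 names in 5 role lists. None was called in either direction by limma over all genes (0 of 46). At an unadjusted p under 0.05 there were 4, all lower in EGFR ACT discs, against 2.38% of all genes. Of the 46 genes 20 read lower and 26 higher, a share of 43.5% lower against 46.8% over all genes, and their median log2 difference was 0.02.

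Among genes listed for making the activated sugar or supplying sugar to that route, 5 of 9 measured read lower, with a median of -0.06. The largest differences were those of Gnpnat, which encodes the acetyltransferase of glucosamine phosphate, and Pgm1, a phosphoglucomutase gene of general sugar metabolism. Gnpnat read 8.44, 7.89 and 8.82 in ACT1, ACT2 and ACT3, against 8.59, 9.11 and 9.14 in DN1, DN2 and DN3, with overlap at DN1 (log2 difference -0.56, SE 0.24). Pgm1 read 8.48, 8.25 and 8.64 in ACT1, ACT2 and ACT3, against 8.93, 8.77 and 8.93 in DN1, DN2 and DN3, without overlap (-0.42, SE 0.15). By contrast mmy, which makes the direct substrate of the synthase and was named after its values were seen, differed by -0.06 (SE 0.14). Of the 4 measured genes of the apical membrane step, Chs2, the synthase gene of the gut, had a log2 difference of 0.10 (SE 0.14) and dsx-c73A 0.22 (SE 0.16).

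The other chitin-binding genes did not share the lower values of obst-B and Gasp. Of 14 measured, 13 read higher in EGFR ACT discs and 1 lower, with differences between -0.08 and 0.23 and a median of 0.09. The largest were teq at 0.23 (SE 0.14) and Peritrophin-A, also called obst-D, at 0.21 (SE 0.16). The groups overlapped in all 14. As deviations from the mean over the arrays, the list averaged 0.04, 0.22 and -0.12 in ACT1, ACT2 and ACT3. The EGFR DN averages were 0.01, -0.07 and -0.08 in DN1, DN2 and DN3. ACT2 was thus the highest array and ACT3 the lowest. Most of the 14 had group means below the array medians of 8.01 to 8.06, and a decrease may not show in dim probe sets. The EGFR DN means of obst-B and Gasp were 10.86 and 8.85. The dimmest, obst-H and Muc68D, had group means of 5.09 to 5.51, below the yeast control averages. Peritrophin-A is the direct neighbour of obst-A in the order of protein-coding genes, where obst-A had -0.37. It read 6.82, 6.90 and 6.82 in ACT1, ACT2 and ACT3, against 6.58, 6.41 and 6.91 in DN1, DN2 and DN3.

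The 4 other deacetylase genes, all measured, read lower by 0.04 to 0.30 (median log2 difference -0.08). Cda4 had -0.30 (SE 0.19) and ChLD3 -0.10 (SE 0.15). Of 15 measured chitinase, hexosaminidase and Idgf genes 8 read lower and 7 higher, with a median of -0.03. Idgf4, a chitinase-like imaginal disc growth factor with no known chitinase activity, read 11.18, 11.45 and 11.44 in ACT1, ACT2 and ACT3, against 11.76, 12.15 and 11.97 in DN1, DN2 and DN3. Its groups did not overlap, and the log2 difference was -0.60 (SE 0.15; limma adjusted p = 1). The chitinase gene Cht2 also lay apart, at 10.66 ± 0.15 in EGFR ACT discs and 11.003 ± 0.11 in EGFR DN discs (SD, n = 3 each), with a log2 difference of -0.34 (SE 0.14; limma adjusted p = 1).

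**Figure D5:**
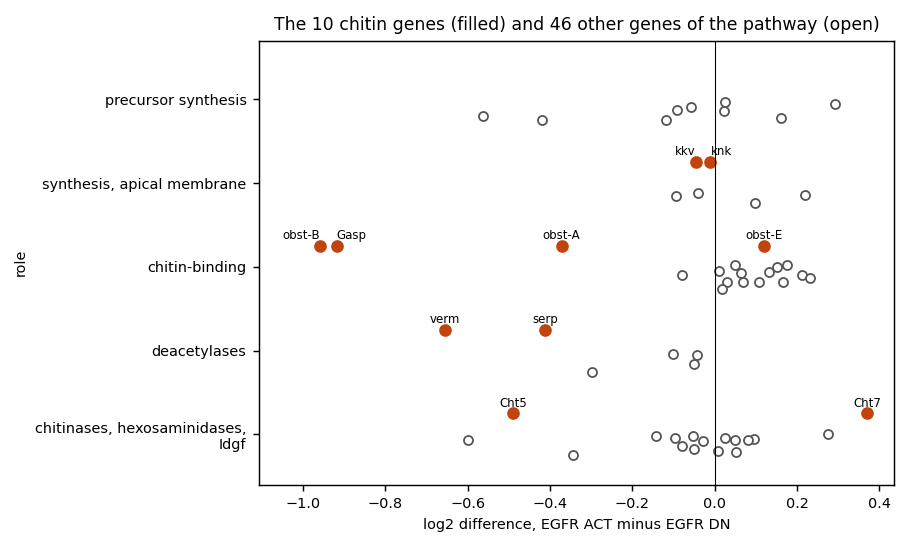
Log2 difference, EGFR ACT minus EGFR DN (x axis), of the 10 chitin genes (filled, named) and of 46 other genes of the pathway (open) by role (rows, with vertical scatter added for legibility). The open points of the chitin-binding row lie between -0.08 and 0.23, to the right of obst-B, Gasp and obst-A, and those of the last row reach -0.60, the value of Idgf4.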

How the data were processed

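Wing disc RNA was measured on 6 Affymetrix arrays, 3 EGFR ACT and 3 EGFR DN, grouped by their titles. The values are log2 signals that the authors deposited for each probe set, made with GCRMA per the submitters' processing notes. No source used here states its version or settings, and the values themselves show the scale. Raw scans were not used here, so dim or saturated probe sets carry no mark. Precision is limited by having 6 arrays.

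From 14010 probe sets, 44 controls were left out. The probe table gave 1 symbol for 12443 of the 13966 others, several for 327 and none for 1196. RefSeq held 10799 of the 10844 genes by Entrez identifier and changed 0 symbols. A gene was represented by its probe set of highest mean. The comparison used the R 4.3.3 package limma, version 3.58.1, with its two-sided moderated test and no covariate, and Benjamini-Hochberg adjustment over all probe sets or all genes. SEs of members come from the fit over probe sets, those of other genes from the fit over genes. The step was tested on simulated data with independent noise for each probe set. That test therefore does not cover array effects that many probe sets share. Figures were drawn with matplotlib 3.10.9.

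The members and the gene lists were chosen with earlier results of these data known. Named are all members, the 2 genes of largest difference in each gene list, Egfr, sty and aos as a check of the labels, and for obst-B and Gasp the 5 genes of most similar profile. Marker lists of tissues are given by their counts, and btl, nub, vg, Sgs1, fkh, br and mmy were named after their values were seen. Alternatives were a filter, 2 scalings, another variance prior, array weights, averaging over a gene's probe sets, the replicate number as a block, and leaving out each array. A count of lower members was added after seeing the data. Protein and promoter sequences were not analysed here.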

Additional observations from a re-analysis of the deposited data

How the results depend on the processing

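No member probe set moved by 1 SD or more of its replicates in any of 156 values under the alternatives. For most of these values that result was fixed in advance. The filter, the other variance prior and the replicate block leave the log2 difference as it is. With so few arrays per group, leaving out 1 cannot shift the difference by 1 SD. Only median centring, quantile normalization and array weights could have moved a value that far. The sign changed in 9 values with 1 array left out (kkv, knk, the dimmer probe sets of obst-E and serp) and in 1 other, knk under quantile normalization. The median over the 10 genes lay between -0.50 and -0.26 with 1 array left out and between -0.47 and -0.33 otherwise, and 6 to 8 genes read lower in EGFR ACT discs. The count of called genes, 0 in the reported fit, was 1 in each of 4 alternatives (averaged probe sets, array weights, quantile normalization, and a robust prior with intensity trend), and 0 to 3 with 1 array left out, the 3 without ACT3. Array weights called 1 probe set, against 0. None was a member or another chitin gene. Genes at an unadjusted p under 0.05 numbered 258, but 946 with array weights, and from 160 (without DN2) and 162 (without ACT2) to 439 (without DN1) and 857 (without ACT3). The replicate block gave 0 called genes and 615 at that unadjusted p, with the chitin gene median at -0.39. Deviations from the group means correlated at 0.613 for ACT1 with DN1, -0.079 for ACT2 with DN2 and 0.600 for ACT3 with DN3, so equal numbers were not taken as pairs, and ACT2 was closer to DN1 (r = 0.292). The cause of these changes was not tested.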

Other observations

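Structural cuticle protein genes read lower about as often as higher. Of 26 measured of 34 names, 14 read lower in EGFR ACT discs and 12 higher, with a median log2 difference of -0.00 and 0 called by limma over all genes. At an unadjusted p under 0.05 there were 2, Edg91 and Cpr51A, against 2.38% of all genes. Edg91, a hormone-dependent cuticle protein gene of the pupa, read 7.70, 7.52 and 7.75 in ACT1, ACT2 and ACT3, against 8.14, 8.30 and 8.37 in DN1, DN2 and DN3, a log2 difference of -0.61 (SE 0.14). Cpr51A read 7.86 ± 0.03 in EGFR ACT discs and 8.23 ± 0.09 in EGFR DN discs (SD, n = 3 each), and differed by -0.37 on the log2 scale (SE 0.13). The 11 measured of 14 apical matrix genes had a median of -0.03 and differences between -0.19 (dyl, SE 0.17) and 0.16 (dpy, SE 0.25), and 0 were called.

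Of the genes that regulate cuticle formation or respond to the moulting hormone ecdysone, ImpE1 and Hr4 had the largest differences but wide spreads within the groups. ImpE1 read 11.42, 10.76 and 9.10 in ACT1, ACT2 and ACT3, against 10.44, 9.99 and 8.19 in DN1, DN2 and DN3. The nuclear receptor gene Hr4 read 10.78, 9.49 and 8.34 in ACT1, ACT2 and ACT3, against 10.33, 9.17 and 7.39 in DN1, DN2 and DN3. In both genes the replicate 3 arrays were lowest in each group, where Gasp, verm and the brighter probe set of serp were highest in each group. The array order of obst-B within each group was that of ImpE1 and Hr4, highest in replicate 1 and lowest in replicate 3. The log2 differences were 0.89 (SE 0.65) for ImpE1 and 0.58 (SE 0.73) for Hr4. Over the 18 measured of 21 genes of this list the median was -0.01, with 9 higher and 9 lower and 0 called. At an unadjusted p under 0.05 there was 1, br, a transcription factor gene of the ecdysone response, against 2.38% of all genes. It read 10.44, 9.89 and 10.52 in ACT1, ACT2 and ACT3, against 10.73, 10.89 and 10.59 in DN1, DN2 and DN3, without overlap, a log2 difference of -0.45 (SE 0.19). The part of developmental time in the chitin gene values was not tested.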
